A study of Mus musculus with 10 samples.

Results

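The genes described here carry out DNA replication and S phase: a list of 43 gene symbols, chosen by name, all 43 of which stand in the deposited table of 15624 genes. Counts come from RNA-seq of pancreatic tumour epithelium of KPFSR mice, cut from frozen sections by laser capture, with 4 libraries in a corn oil (vehicle) group and 6 in a tamoxifen group. From knowledge of the model and not from the labels, KPFSR animals carry a mutant Trp53 allele, a Flp recombinase driven in the pancreas, floxed Slc7a11 and a tamoxifen-inducible Cre at Rosa26, which is active beyond the tumour epithelium. Both groups share these alleles, and the corn oil group differs by lacking the Cre inducer. No source used here states the sex, age, dose, treatment time or animal behind a library. Each p-value therefore reflects spread among libraries only and is too small if libraries share an animal. Sex read from Xist and Ddx3y counts was not balanced. It gave 2 female and 2 male libraries with corn oil, and 1 female and 5 male with tamoxifen.

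A cell can copy its DNA once per cycle because loading and firing of origins are separated in time. The origin recognition complex, with Cdc6 and Cdt1, loads the Mcm2 to Mcm7 helicase in G1. In S phase Cdc45 and the GINS complex join the helicase, primase and polymerase alpha start each strand, polymerases delta and epsilon extend it on the Pcna clamp, and nucleotide enzymes and histone chaperones keep pace. Many of these genes are switched on together at the G1 to S transition by E2F transcription factors, and dividing tumour epithelium is the usual setting in which they are abundant.

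Promoter sequence was examined first, because shared E2F control is what joins these genes in textbooks. RefSeq windows on GRCm38.p6, from 250 bases before to 50 bases after a start site, were matched for 36 of the 43 genes. Mcm4, Gins1, Gins2, Gins4, Prim2, Pole and Rfc2 were not matched. The E2F motif was searched on both strands as TTTCCCGC, TTTGGCGC, TTTCGCGC or TTTGCCGC. It stood in 13 of 36 member windows (36.1%) and of 445 of the 9670 tested genes with a window (4.60%). The 13 were Orc1, Cdc6, Cdt1, Mcm3, Mcm5, Mcm6, Mcm7, Gins3, Pola1, Pold1, Rfc3, Lig1 and Uhrf1. The CCAAT box, bound by NF-Y, was searched as CCAAT on both strands and stood in 23 of 36 members (63.9%) against 42.8% of the tested genes. The CHR element of mitotic promoters, searched as TTTGAA on both strands, stood in 5 of 36 members (13.9%), in 1355 of the 9670 tested genes, and in 11 of 14 mitosis genes with a window.

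The sequences below run 5′ to 3′ towards the start site. They show Mcm5 and Mcm6, whose promoters hold the E2F motif in full, and Pcna, Rfc4 and Tyms, the 3 members whose levels did not overlap between the groups. Each begins at base -160 from the start site. The Mcm5 sequence ends at base -42 and that of Tyms at base -21, where the RefSeq gene span begins. CCAAT boxes of Mcm5 that begin at bases -22 and 7 are therefore not shown. Capitals mark E2F motifs and CCAAT boxes on either strand, and in Mcm5 and Mcm6 some E2F matches overlap each other.
Mcm5, chr8:75109349-75109467, plus strand: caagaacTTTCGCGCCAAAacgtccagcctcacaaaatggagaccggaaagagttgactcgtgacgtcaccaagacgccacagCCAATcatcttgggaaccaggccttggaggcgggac
Mcm6, chr1:128359706-128359865, minus strand: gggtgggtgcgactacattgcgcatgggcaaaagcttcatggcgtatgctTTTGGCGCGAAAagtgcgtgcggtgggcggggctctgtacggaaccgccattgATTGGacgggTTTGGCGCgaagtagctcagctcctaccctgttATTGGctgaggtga
Pcna, chr2:132253181-132253340, minus strand: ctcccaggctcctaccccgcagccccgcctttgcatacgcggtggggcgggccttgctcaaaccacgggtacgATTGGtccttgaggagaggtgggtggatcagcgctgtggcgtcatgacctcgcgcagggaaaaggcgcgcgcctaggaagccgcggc
Rfc4, chr16:23127731-23127890, minus strand: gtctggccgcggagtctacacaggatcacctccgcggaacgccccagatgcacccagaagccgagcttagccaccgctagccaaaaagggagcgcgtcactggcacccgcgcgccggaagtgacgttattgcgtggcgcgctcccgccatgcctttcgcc
Tyms, chr5:30073646-30073785, minus strand: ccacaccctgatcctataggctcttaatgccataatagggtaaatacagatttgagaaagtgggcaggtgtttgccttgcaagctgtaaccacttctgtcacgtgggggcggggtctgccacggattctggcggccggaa

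A CCAAT box, but none of the searched E2F letters, stood in the Pcna window, and neither motif stood in the Rfc4 and Tyms windows. Members with the E2F motif had a median log2 fold change, tamoxifen against corn oil, of -0.58 with 9 of 13 lower. Members without it had a median of -0.40 with 18 of 23 lower. The first median depended on corn oil replicate 4. Without that library Orc1 (-0.51), Gins3 (-0.13), Rfc3 (-0.47) and Lig1 (-0.70) were the motif members fitted lower. Cdc6 (0.31), Cdt1 (0.67), Mcm3 (0.34), Mcm5 (0.64), Mcm6 (0.62), Mcm7 (0.61), Pola1 (0.49), Pold1 (1.73) and Uhrf1 (0.83) were fitted higher. Whether members with and without the motif differ was not tested.

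Libraries held 16473902 to 36132316 counts with corn oil and 6899347 to 19462115 with tamoxifen, and replicate 6 was the shallowest. Replicate 6 also had the fewest genes with a count (11643, others 12658 to 14674). Tamoxifen replicates 1 to 3 are known from an earlier look at these counts to resemble each other more than other libraries do. Slc7a11, the floxed gene, had 23.2 to 40.1 normalised CPM (reads scaled to a common library size with TMM factors) with corn oil and 5.90 to 19.3 with tamoxifen, without overlap (log2 fold change -1.41, adjusted p 0.311 in edgeR, SE 0.44). Trp53 had 6.22 to 8.91 with corn oil and 19.98 to 225 with tamoxifen (log2 fold change 4.30, adjusted p 0.0362 in edgeR, SE 0.61). Levels of Slc7a11 and Trp53 thus both separated the groups. The part of either gene, or of tamoxifen itself, in the replication genes was not tested. Summed epithelial markers (8 of 8 in the table) stood at 14090 to 30070 normalised CPM with corn oil and 13890 to 24680 with tamoxifen, and none was at 0 in any library. Of these 8 markers 7 were fitted lower with tamoxifen, at a median log2 fold change of -0.37, and Sox9 was lower without overlap (-1.20, adjusted p 0.261 in edgeR, SE 0.34). Summed fibroblast markers (9 of 9) stood at 126 to 464 with corn oil and 132 to 1044 with tamoxifen, Pdgfra and Fap were at 0 in some libraries, and all 8 tested members were fitted higher with tamoxifen, at a median log2 fold change of 1.21. Summed macrophage markers (7 of 8) stood at 508 to 750.2 and 112 to 1251, with 6 of 7 fitted lower at a median log2 fold change of -0.42. Lymphocyte markers (5 of 8) summed to at most 0.322 and 2.01 normalised CPM, with each of the 5 at 0 in some library, and endothelial markers (5 of 5) to at most 19.7 and 28.3. Acinar markers (3 of 6) summed to 17.2 to 204 and 33.1 to 86.8. The part of these other cells in the values of the replication genes was not tested.

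No replication gene passed an FDR of 0.05 in edgeR's quasi-likelihood test of tamoxifen against corn oil, against 5 of 13006 tested genes (0.0384%). All 43 members had enough counts to be tested. Of them 33 (76.7%) had a fitted level lower with tamoxifen and 10 higher, where 50.7% of all tested genes were lower. Members had a median log2 fold change of -0.42, and all tested genes one of -0.01. At an unadjusted p under 0.05 there were 7 members lower (16.3%) and 0 higher, beside a background of 5.27% of tested genes lower at that threshold. The 7 were Pcna, Rfc4, Lig1, Rrm1, Tyms, Tk1 and Chaf1b. In 3 of the 43 (6.98%) every tamoxifen library lay below every corn oil library, beside 1.95% of all tested genes. DESeq2 called 1 member, Pcna, at an adjusted p of 0.0288 in a fit that called 1.89% of all genes. Limma voom with sample weights called 7 members in a fit that called 9.62% of all genes: Pcna, Rfc3, Lig1, Tyms, Tk1 and Chaf1b lower and Rrm2 higher. The voom sample weights were 1.69, 5.49 and 3.87 for tamoxifen replicates 1 to 3, against 0.308 and 0.333 for replicates 4 and 6. In bulk epithelium, fewer cells in S phase and less RNA per such cell cannot be told apart.

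**Figure D1:**
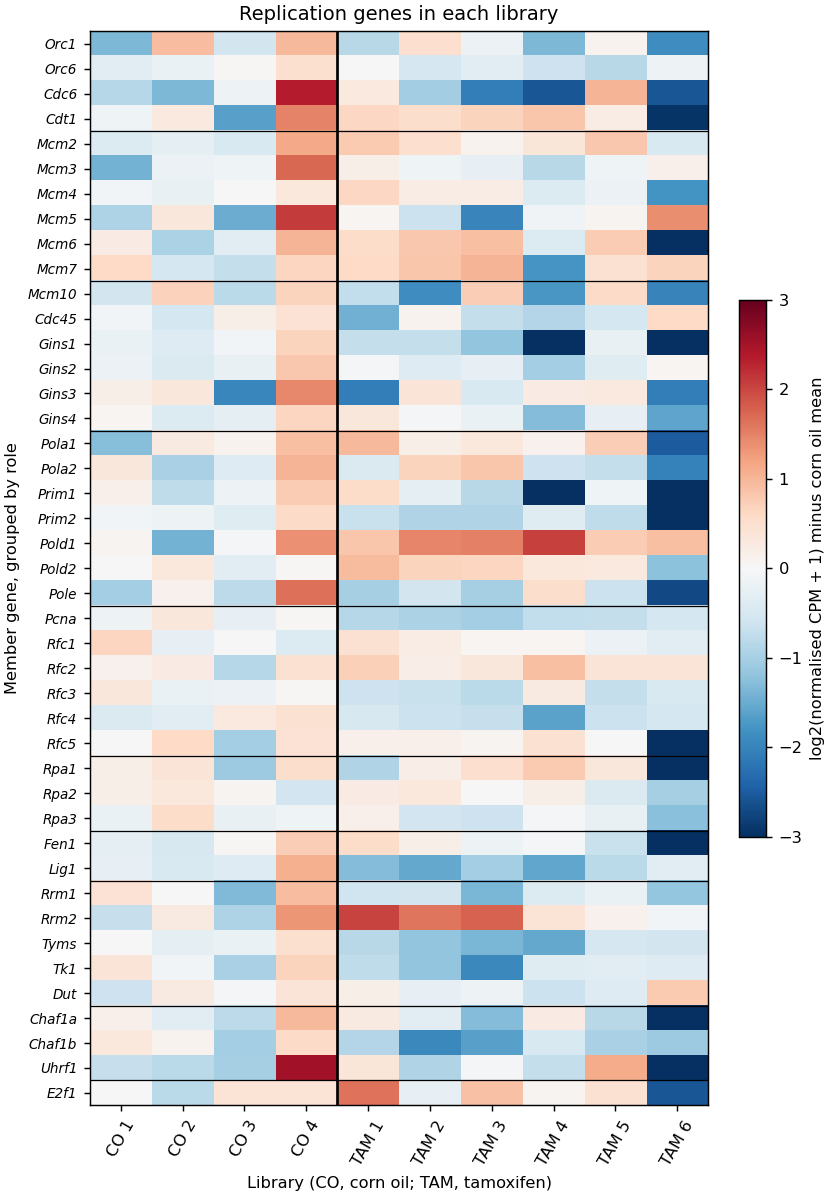
Level of each of the 43 members in each library, as log2(normalised CPM + 1) minus the mean of the 4 corn oil libraries, with colours ending at -3 and 3. Corn oil replicate 4 (CO 4) is red across most rows, and tamoxifen replicate 6 (TAM 6) holds most of the darkest blue cells.

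Single libraries carried much of the difference. Corn oil replicate 4 had the highest log2 level of all 10 libraries for 25 of the 43 members, and tamoxifen replicate 6 the lowest for 20. Both of these libraries read as female from Xist and Ddx3y. With sex as covariate 33 of 43 members were fitted lower, around a median of -0.48. In that fit the changes of Uhrf1 (-0.08), Cdc6 (-0.77) and Mcm3 (-0.26) were smaller in size. Those of Gins1 (-1.97) and Prim2 (-1.535), among others, were larger. The part of sex in the values of both libraries was not otherwise tested. The mean log2 CPM over the members was 5.52 in corn oil replicate 4 and 4.13 to 4.52 in the other 3 corn oil libraries. With tamoxifen it was 2.48 in replicate 6 and 3.95 to 4.60 in the other 5, so the groups overlapped. Group means were 4.66 ± 0.599 (SD, n = 4) and 4.06 ± 0.807 (SD, n = 6). Without corn oil replicate 4 only 24 of 43 members were lower, around a median of -0.11, and unadjusted p under 0.05 was reached by 3 members lower and 3 higher (6.98% each), beside 4.29% of all genes lower and 4.45% higher in that fit. The fit that left out tamoxifen replicate 6 had 28 of 43 lower and a median of -0.47. In replicate 6 there were 7 members with no read (Orc1, Cdc6, Mcm10, Gins1, Gins3, Pole and Uhrf1), which allows up to 0.49 normalised CPM there, taking 3 counts as the limit and counting error only. Gins3 had no read in tamoxifen replicate 1 and Cdc6 none in tamoxifen replicate 4, which allows 0.261 and 0.188 normalised CPM.

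The licensing genes mark and prepare origins in G1. Orc6, the smallest origin recognition subunit, had normalised CPM of 44.3, 48.3, 57.4 and 78.8 in corn oil replicates 1 to 4, and with tamoxifen 30.9 at the lowest, 41.9 at the median and 56.2 at the highest. The groups overlapped, although all 6 tamoxifen libraries lay below the corn oil mean, and the log2 fold change was -0.42 (adjusted p 0.701 in edgeR, SE 0.28). Orc6 shares 171 exonic bases with Vps35 on the other strand. Cdc6, the helicase loader, had 2.28, 1.34, 4.39 and 29.6 normalised CPM with corn oil, so a single library set the group's mean. With tamoxifen Cdc6 went from 0 in replicates 4 and 6 over a median of 1.17 to 11.1 in replicate 5. Its log2 fold change was -1.50 (adjusted p 0.815 in edgeR, SE 1.43) and became 0.31 without corn oil replicate 4. Orc1, the ATPase subunit of the same complex, and Cdt1, which brings the helicase to the origin, had log2 fold changes of -0.94 and -0.04. Per kilobase of exons, Orc6 (23.2 ± 6.25 normalised CPM per kb, SD, n = 4, corn oil) stood above Cdt1 (9.22 ± 7.67), Cdc6 (1.80 ± 2.59) and Orc1 (1.001 ± 0.847), and the last 2 did not differ beyond their spread.

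The 6 MCM genes encode a ring that unwinds DNA, and its subunits work in equal number. They did not move one way: Mcm2, Mcm6 and Mcm7 were fitted higher with tamoxifen and Mcm3, Mcm4 and Mcm5 lower, with log2 fold changes from -0.60 to 0.39 and edgeR adjusted p of at least 0.777. Mcm7, the most abundant of the 6 in normalised CPM, stood at 76.3, 34.4, 29.98 and 78.0 with corn oil and at 13.8 to 102 with a median of 78.0 with tamoxifen. The tamoxifen range enclosed the corn oil range, and Mcm7 shares 321 exonic bases with Ap4m1 on the other strand. Mcm3 stood at 12.8, 31.6, 32.6 and 121 normalised CPM with corn oil and at 19.7 to 40.8 with a median of 32.5 with tamoxifen. Its log2 fold change of -0.60 (adjusted p 0.777 in edgeR, SE 0.50) became 0.34 without corn oil replicate 4. Mcm2 stood at 28.5, 31.9, 27.9 and 85.4 normalised CPM with corn oil and at 27.9 to 68.5 (median 52.6) with tamoxifen. Its log2 fold change of 0.25 (adjusted p 0.908 in edgeR, SE 0.39) was 0.81 without that library. Mcm6 stood at 62.4, 26.7, 41.99 and 107 with corn oil and at 3.43 to 99.8 (median 83.6) with tamoxifen. In tamoxifen replicate 6 Mcm6 was at 3.43 while Mcm5 was at 61.3 and Mcm7 at 79.6. RNAs for subunits of 1 ring were thus far apart in that shallow library. Per kilobase of exons the 6 genes lay between 6.24 ± 4.03 (Mcm2) and 13.2 ± 12.9 (Mcm3) normalised CPM per kb with corn oil (SD, n = 4), a spread within that of the replicates.

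Mcm10, Cdc45 and the 4 GINS genes turn the loaded ring into a moving helicase. All 6 were fitted lower with tamoxifen, with log2 fold changes from -1.39 to -0.40, a median of -0.59 and edgeR adjusted p of at least 0.745. Gins1 stood at 8.19, 7.04, 9.07 and 15.8 normalised CPM with corn oil and at 0 to 8.06 (median 4.57) with tamoxifen. It was below every corn oil library in 5 of 6 tamoxifen libraries, the exception being replicate 5, and its log2 fold change was -1.39 (adjusted p 0.745 in edgeR, SE 1.06). Gins4 stood at 87.4, 63.8, 69.2 and 132 with corn oil and at 27.5 to 107 (median 72.2) with tamoxifen, where replicates 4 and 6 were lowest at 33.7 and 27.5. Its log2 fold change was -0.43 (adjusted p 0.800 in edgeR, SE 0.38). At the RNA level Gins4 gave 65.3 ± 22.9 normalised CPM per kb of exons with corn oil (SD, n = 4). Gins1 gave 6.62 ± 2.61, Gins2 6.11 ± 2.81 and Gins3 1.72 ± 1.58. Length here is the exons of all transcripts together, 1349 bases for Gins4 and 4097 for Gins2, which affects this order. These RNA values do not measure the protein complex, whose parts are equal in number. Gins1 and Gins2 did not differ beyond their spread. Gins2 shares 2758 exonic bases with Gse1 on the other strand, and these kits do not mark strand.

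Primase and polymerase genes were fitted in both directions, and no difference between them was tested. Both primase subunits were fitted lower, Prim1 at a log2 fold change of -0.76 and Prim2 at -1.04, while the polymerase delta subunits among the members, Pold1 and Pold2, were fitted higher. Of the other delta subunits, Pold3 was fitted lower (-0.38) and Pold4 higher (0.43). Prim2, the large primase subunit, stood at 20.8, 19.8, 17.0 and 33.3 normalised CPM with corn oil and at 0.654 to 17.0 (median 11.9) with tamoxifen. Of the 6 tamoxifen libraries 5 lay below all corn oil libraries, and replicate 4, at 17.03, exceeded corn oil replicate 3, at 17.005, by a trace (adjusted p 0.663 in edgeR, SE 0.63). Pold1, the catalytic subunit of polymerase delta, stood at 16.4, 5.24, 15.2 and 41.7 with corn oil and at 27.3 to 67.8 (median 37.3) with tamoxifen. All 6 tamoxifen libraries exceeded corn oil replicates 1 to 3, but corn oil replicate 4 lay among them. The log2 fold change of Pold1 was 1.05 (adjusted p 0.550 in edgeR, SE 0.51), the highest of the 43, and 1.73 without corn oil replicate 4 (edgeR adjusted p 0.334). Pold2, its accessory subunit, stood at 58.4, 74.6, 46.7 and 60.7 with corn oil and at 24.7 to 115 (median 84.2) with tamoxifen. The Pold2 log2 fold change of 0.40 (adjusted p 0.800 in edgeR, SE 0.36) was -0.06 without tamoxifen replicates 1 to 3. Pola1, the catalytic subunit of polymerase alpha, stood at 2.83, 10.1, 8.99 and 16.4 with corn oil and at 0.654 to 17.3 (median 9.95) with tamoxifen. Its log2 fold change of 0.10 (adjusted p 0.986 in edgeR, SE 0.75) turned to -0.24 without tamoxifen replicates 1 to 3. Pola2, its partner, and Pole, the catalytic subunit of polymerase epsilon, had log2 fold changes of -0.29 and -1.24.

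Pcna, the ring that tethers polymerase to DNA, gave the smallest p of the 43 genes. The gene occupies bases 132249162 to 132253314 of chromosome 2 (GRCm38, minus strand). Pcna stood at 86.7, 122, 81.1 and 98.6 normalised CPM in corn oil replicates 1 to 4 and at 52.7, 48.8, 46.4, 57.1, 58.0 and 66.2 in tamoxifen replicates 1 to 6. The groups did not overlap. The gap between the highest tamoxifen and the lowest corn oil library was more than the tamoxifen SD but less than the corn oil SD. Means were 97.1 ± 18.1 (SD, n = 4) and 54.9 ± 7.15 (SD, n = 6), a log2 fold change of -0.82 (unadjusted p 0.0029, adjusted p 0.229 in edgeR, SE 0.22). Leaving out any 1 library gave -0.90 to -0.69, and leaving out tamoxifen replicates 1 to 3 gave -0.68. Corn oil replicate 4, the highest library for most members, was not the highest for Pcna. The annotation holds Pcna-ps1 and Pcna-ps2, and no source used here says how reads shared with such copies were counted.

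The clamp loader, which opens Pcna, has 5 subunits that split in direction. Rfc4 occupies bases 23113943 to 23127737 of chromosome 16 (minus strand). It stood at 23.4, 25.1, 39.5 and 44.3 normalised CPM with corn oil and at 22.5, 20.2, 19.4, 9.74, 20.1 and 21.9 in tamoxifen replicates 1 to 6. The groups did not overlap, but tamoxifen replicate 1 and corn oil replicate 1 were within 1 normalised CPM, and with upper-quartile factors the groups overlapped. The log2 fold change of Rfc4 was -0.80 (unadjusted p 0.0457, adjusted p 0.503 in edgeR, SE 0.36), and Rfc4 shares 194 exonic bases with Eif4a2 on the other strand. Rfc2, the most abundant loader subunit in normalised CPM, stood at 63.1, 68.3, 31.4 and 79.3 with corn oil and at 65.99 to 109 (median 75.4) with tamoxifen, a log2 fold change of 0.44 (adjusted p 0.690 in edgeR, SE 0.29). It was the only member beside Pold1 above its corn oil mean in all 6 tamoxifen libraries. Rfc1, the large subunit, stood at 87.98, 47.0, 56.5 and 42.2 with corn oil and at 44.3 to 76.7 (median 58.5) with tamoxifen, a log2 fold change of 0.01 (adjusted p 0.998 in edgeR, SE 0.28). Rfc3 had a log2 fold change of -0.47, with 5 of 6 tamoxifen libraries below all corn oil libraries, and Rfc5 one of -0.20. Rfc2 shares 952 exonic bases with Lat2 and Rfc5 499 with Wsb2, both on the other strand.

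Single-strand DNA is coated by the 3 RPA proteins, whose genes showed small differences. Rpa3, the smallest subunit, stood at 60.2, 103, 59.9 and 63.9 normalised CPM with corn oil and at 28.8 to 77.8 (median 53.3) with tamoxifen, a log2 fold change of -0.40 (adjusted p 0.752 in edgeR, SE 0.31). Rpa2 stood at 39.6, 44.4, 37.3 and 23.3 with corn oil and at 17.2 to 43.8 (median 37.5) with tamoxifen, a log2 fold change of -0.09 (adjusted p 0.974 in edgeR, SE 0.34). Rpa1, the large subunit, had a log2 fold change of -0.09 (SE 0.70). Both Rpa1 and Rpa2 overlapped widely between the groups.

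Okazaki fragments are trimmed by Fen1 and sealed by Lig1. Lig1 stood at 25.3, 21.5, 22.8 and 64.4 normalised CPM with corn oil and at 11.7, 9.69, 14.4, 9.55, 16.8 and 24.02 in tamoxifen replicates 1 to 6. Replicate 6 was the tamoxifen library that reached into the corn oil range. The log2 fold change of Lig1 was -1.23 (unadjusted p 0.0165, adjusted p 0.364 in edgeR, SE 0.44) and -0.70 without corn oil replicate 4. Fen1 stood at 44.5, 38.96, 55.97 and 91.9 with corn oil and at 4.08 to 80.3 (median 50.7) with tamoxifen, a log2 fold change of -0.30 (adjusted p 0.928 in edgeR, SE 0.56) that was 0.02 without corn oil replicate 4. Fen1 shares 1909 exonic bases with Gm10143 and Lig1 247 with Zswim9, both on the other strand.

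**Figure D2:**
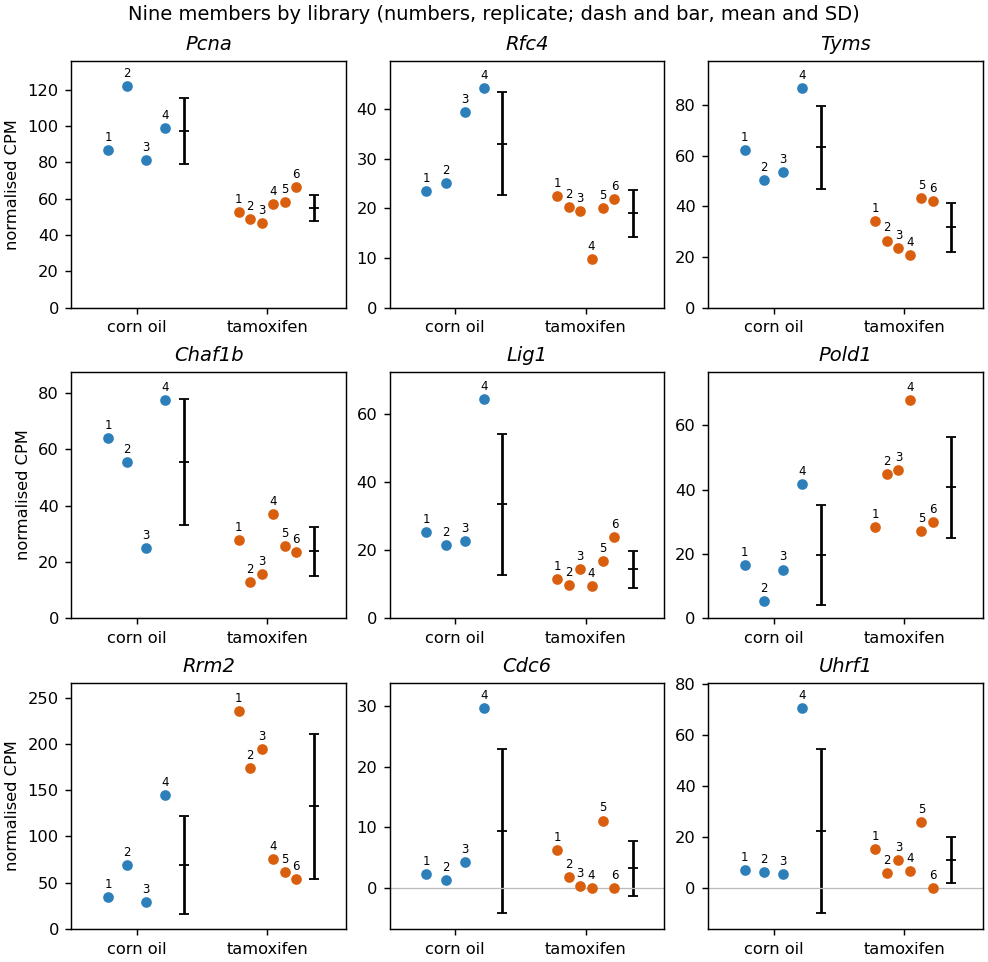
Normalised CPM of 9 members in each library, with the replicate number beside each point and the group mean and SD to the right. Pcna, Rfc4 and Tyms show no overlap between the 4 corn oil and 6 tamoxifen libraries, Rrm2 is at 174 to 236 in tamoxifen replicates 1 to 3 alone, and corn oil replicate 4 lies far above its group for Lig1, Cdc6 and Uhrf1.

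Nucleotide supply genes were lower in 4 of 5 cases, with a median log2 fold change of -0.87. Tyms, thymidylate synthase, occupies bases 30058202 to 30073617 of chromosome 5 (minus strand). It stood at 62.2, 50.5, 53.8 and 86.9 normalised CPM with corn oil and at 34.1, 26.5, 23.5, 20.7, 43.4 and 42.2 in tamoxifen replicates 1 to 6. The groups did not overlap, and the log2 fold change was -0.998 (unadjusted p 0.00637, adjusted p 0.299 in edgeR, SE 0.31). Leaving out any 1 library gave -1.09 to -0.81, and leaving out tamoxifen replicates 1 to 3 gave -0.83. Tyms-ps is an annotated pseudogene of Tyms. Tk1, the thymidine salvage kinase, had a log2 fold change of -0.87 (unadjusted p 0.049, adjusted p 0.513 in edgeR, SE 0.40).

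Ribonucleotide reductase makes deoxynucleotides from a large subunit, Rrm1, and an S-phase small subunit, Rrm2, and here the fitted changes of its subunits had opposite signs. Rrm1 stood at 72.4, 52.6, 20.8 and 102 normalised CPM with corn oil and at 20.04 to 46.6 (median 35.6) with tamoxifen, a log2 fold change of -0.88 (unadjusted p 0.0471, adjusted p 0.507 in edgeR, SE 0.40). Rrm2 stood at 35.0, 68.7, 29.3 and 144 with corn oil and at 236, 174, 194, 76.0, 61.6 and 53.8 in tamoxifen replicates 1 to 6. Only the 3 similar libraries exceeded corn oil replicate 4, and the other 3 lay inside the corn oil range. The log2 fold change of Rrm2 was 0.93 (adjusted p 0.642 in edgeR, SE 0.54), 0.50 with tamoxifen replicates 1 to 3 summed into 1 sample, and -0.12 when they were dropped. Dut, which removes dUTP, had a log2 fold change of -0.05.

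Chromatin assembly and methylation maintenance follow the fork. Chaf1b, the middle subunit of the CAF-1 histone chaperone, stood at 64.1, 55.3, 24.9 and 77.4 normalised CPM with corn oil and at 27.6, 12.8, 15.8, 36.9, 25.5 and 23.5 in tamoxifen replicates 1 to 6. All tamoxifen libraries lay below corn oil replicates 1, 2 and 4, while corn oil replicate 3 lay within the tamoxifen range. The log2 fold change of Chaf1b was -1.23 (unadjusted p 0.00718, adjusted p 0.309 in edgeR, SE 0.38). Chaf1a, the large subunit, had one of -0.70 and shares 4648 exonic bases with Ubxn6 on the other strand. Uhrf1, which directs maintenance methylation, stood at 6.71, 6.10, 5.28 and 70.4 with corn oil and at 0 to 25.9 (median 8.79) with tamoxifen. Its log2 fold change of -1.04 (adjusted p 0.8287 in edgeR, SE 1.05) became 0.83 without corn oil replicate 4.

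E2f1, the transcription factor that drives many of these genes, stood at 5.85, 2.93, 8.06 and 8.07 normalised CPM with corn oil and at 0.163 to 20.03 (median 7.29) with tamoxifen. The groups overlapped, and the log2 fold change was 0.45 (adjusted p 0.932 in edgeR, SE 0.88), or -0.33 without tamoxifen replicates 1 to 3. E2f1 was at 20.03 in tamoxifen replicate 1 and at 0.163 in replicate 6.

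**Figure D3:**
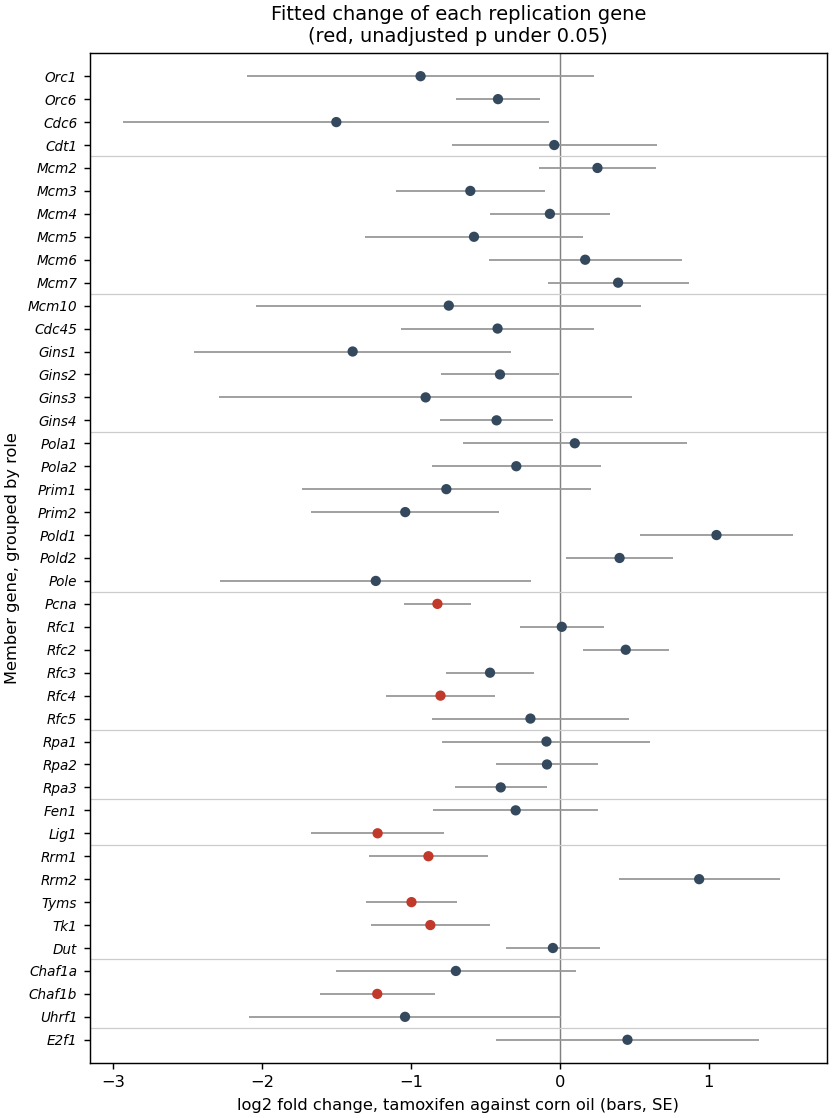
Log2 fold change of each member, tamoxifen against corn oil, with its SE, ordered by role, in red where the unadjusted p was under 0.05. The 7 red genes are all lower, and Pold1 (1.05) and Rrm2 (0.93) stand furthest to the right.

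The rest of the replication and cell cycle machinery was read from lists chosen by name, and no gene of these lists passed the FDR in edgeR. Of 41 other replication genes, all tested, 26 were lower and 15 higher, with a median log2 fold change of -0.07 and 2 lower (4.88%, beside 5.27% of all tested genes) and 0 higher at an unadjusted p under 0.05. Rnaseh2b, a subunit of the RNase that removes ribonucleotides from DNA, stood at 29.1 to 36.9 normalised CPM with corn oil and at 11.4 to 26.3 with tamoxifen, without overlap (log2 fold change -1.10, SE 0.35, edgeR adjusted p 0.311). The PCNA-associated factor, listed as 2810417H13Rik, had a log2 fold change of -2.24 (adjusted p 0.395 in edgeR, SE 0.85). Rbbp4, a histone-binding subunit shared by CAF-1 and other complexes, was at 232 to 266 normalised CPM with corn oil and 267 to 351 with tamoxifen (log2 fold change 0.34, SE 0.19, edgeR adjusted p 0.617).

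Of 24 G1/S cyclins, kinases, E2F and RB genes 13 were lower and 11 higher, with a median of -0.31. Ccna2, the S-phase and G2 cyclin, stood at 2.86 to 69.7 normalised CPM with corn oil and 2.79 to 17.9 with tamoxifen (log2 fold change -2.01, SE 0.73, edgeR adjusted p 0.363). Mybl2, a late S-phase transcription factor, had a log2 fold change of -3.34 (adjusted p 0.532 in edgeR, SE 1.59) and at most 8.54 normalised CPM in any library. Ccnd3, a G1 cyclin, had one of 0.53 (adjusted p 0.637 in edgeR, SE 0.30).

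CDK inhibitors did not share a direction, with 4 of 7 lower. Cdkn1a, which encodes p21 and is a target of p53, stood at 108 to 168 normalised CPM with corn oil and at 130.1 to 633 with tamoxifen (log2 fold change 0.98, SE 0.42, edgeR adjusted p 0.481). Its highest library was tamoxifen replicate 6, the shallowest one and the one with the lowest mean log2 CPM over the replication genes. Its next highest, at 370, was tamoxifen replicate 5, whose mean over the replication genes (4.60) was the highest with tamoxifen. A relation between Cdkn1a and the replication genes was not tested. Cdkn2a stood at 34.5 to 112 with corn oil and 15.9 to 40.02 with tamoxifen (log2 fold change -1.25, SE 0.40, edgeR adjusted p 0.311), and Cdkn2c had a log2 fold change of -1.18 (SE 0.93). Of 15 checkpoint and fork repair genes 7 were lower and 8 higher. Brca2 had a log2 fold change of 1.02 (SE 0.51) and Brca1 one of -1.36 (SE 1.07).

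Mitosis genes had a lower median than the replication genes. All 16 were fitted lower, from -1.85 to -1.17 with a median of -1.58, 11 of them (68.8%, beside 5.27% of all tested genes) at an unadjusted p under 0.05 and 0 past the FDR in edgeR. The groups overlapped for all 16. Ube2c, which readies the anaphase-promoting complex, stood at 30.6 to 247 normalised CPM with corn oil and 15.3 to 54.5 with tamoxifen (log2 fold change -1.85, SE 0.50, edgeR adjusted p 0.229). Birc5 had a log2 fold change of -1.84 (adjusted p 0.318 in edgeR, SE 0.59) and Top2a one of -1.66 (adjusted p 0.395 in edgeR, SE 0.63). Without corn oil replicate 4 all 16 mitosis genes were still fitted lower, with a median of -1.27, where the replication genes had 24 of 43 lower and a median of -0.11. That fit kept corn oil replicate 2, which was also high for mitosis genes. Birc5 stood at 29.3, 123, 15.2 and 130 normalised CPM in corn oil replicates 1 to 4, and at 4.60 to 29.5 with tamoxifen. No fit left out both corn oil replicates 2 and 4, so dependence on these libraries was not settled. Whether the medians of the 2 lists differ beyond library error was not tested.

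**Figure D4:**
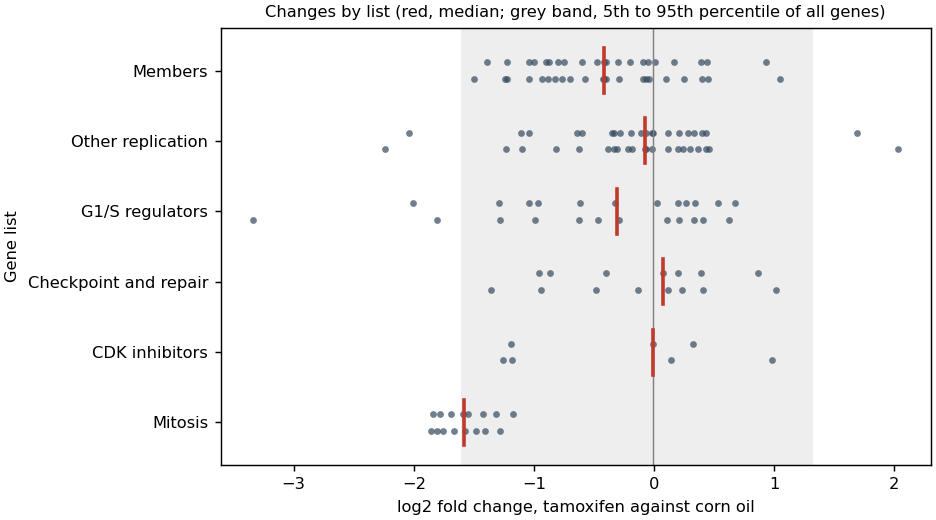
Log2 fold change of each tested gene by list, tamoxifen against corn oil, with the list's median in red and the band that holds the middle of all tested genes, from -1.60 to 1.32, in grey. The members spread from -1.50 to 1.05 around a median of -0.42, while all 16 mitosis genes lie below -1.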

How the data were processed

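Read counts per gene symbol, not normalized, stand in the authors' deposited table, with 1 column per library. The submitters' processing notes name bcl2fastq 2.17, STAR 2.5.2b, mm10 and also featureCounts 1.5.0-p3. No source used here states the annotation, strand setting or treatment of reads that map to several places. Per the labels' protocols, cDNA was amplified with a SMART-seq kit and made into Nextera XT libraries. The main test was edgeR 4.0.16 (R 4.3.3): filterByExpr kept 13006 genes, TMM factors scaled them, and a quasi-likelihood F test without covariate compared the groups, with Benjamini-Hochberg adjustment over all tested genes at an FDR of 0.05. The code was tested on simulated data. The SE of a log2 fold change was derived from the F value. Log2 CPM used a prior count of 2. Levels per kilobase used the union of exons in GENCODE M21 (GRCm38), which also gave the gene positions. Libraries were grouped by the treatment label and numbered in accession order.

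Members and lists were chosen with earlier results of these data known. In each role group the 2 members of smallest unadjusted p and the most abundant member were described by library, or every member of a group under 3; members past the FDR, without overlap between groups or opposite in sign to the median were also named, as were, in other lists, the 3 genes of smallest p. One gene this rule names is not reported here. Alternatives were RLE and upper-quartile factors, other filters, DESeq2 1.42.0, limma 3.58.1 voom with sample weights, an FDR of 0.1, robust dispersion, leaving out libraries, and a covariate for the number of detected genes or for sex (read from Xist and Ddx3y). Figures were drawn with matplotlib 3.10.9.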

Additional observations from a re-analysis of the deposited data

Results flagged for a closer look

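Dixon's ratio was computed in each group for the 26 members described by library or by rule and for the members' mean, 54 ratios in all, and not for the other 17 members. In 8 of them the highest or lowest library stood apart from its group, where chance gives about 1 in 20 independent groups of unselected genes. These ratios share libraries and selected members, so that share is no measure of chance here. Corn oil replicate 4 stood above the other corn oil libraries for Cdc6 (29.6 normalised CPM, the others at 1.34 to 4.39), Mcm2 (85.4, the others at 27.9 to 31.9), Lig1 (64.4, the others at 21.5 to 25.3) and Uhrf1 (70.4, the others at 5.28 to 6.71). Rpa3 was at 103 in corn oil replicate 2 and at 59.9 to 63.9 in the others. Prim2 was at 0.654 in tamoxifen replicate 6 and at 11.2 to 17.0 in the others. The members' mean log2 CPM was 2.48 in that same library and 3.95 to 4.60 in the others. Rfc4 was at 9.74 in tamoxifen replicate 4 and at 19.4 to 22.5 in the others.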

How the results depend on the processing

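The median log2 fold change of the replication genes was below 0 in all 23 alternatives, from -0.55 (without tamoxifen replicates 1 to 3) to -0.11 (without corn oil replicate 4). Members past the FDR numbered 0 in every edgeR alternative, 1 in DESeq2 and 7 in voom, where 1.89% and 9.62% of all genes passed. Among the named members, Pcna, Lig1, Rrm2, Tyms and Chaf1b passed in voom. At an unadjusted p under 0.05 the edgeR alternatives held 1 to 8 members lower, beside 2.23% to 10.1% of all genes. They held 0 to 3 members higher, beside 2.39% to 8.21% of all genes. With sex as covariate 3 members were lower and 1 higher, beside 4.72% and 4.47% of all genes. Members without overlap between groups numbered 3 in the full data (Pcna, Rfc4 and Tyms) and 4 with no filter on low counts (Prim2 added). With upper-quartile factors they numbered 3 (Prim2 in place of Rfc4). They numbered 3 to 7 with 1 library left out and 6 without tamoxifen replicates 4 and 6. Pcna and Tyms were among them in every alternative. The share of all genes without overlap was computed for the full data only, and fewer libraries make such separation easier. Over all genes, edgeR called 5, or 0 to 11 with 1 library left out, 18 at an FDR of 0.1, 21 with detected genes as covariate, 0 with sex as covariate, 77 without tamoxifen replicates 4 and 6, 0 without replicates 1 to 3 and 0 with these as 1 sample, while DESeq2 called 243 and voom 1251. Where edgeR called 0, genes at an unadjusted p under 0.05 still numbered 1196 with sex as covariate, 602 without tamoxifen replicates 1 to 3, 709 with these as 1 sample and at least 894 with 1 library left out. No scaling moved the median of all genes by over 0.1 on the log2 scale.

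The log2 fold changes of some named members changed sign, none past the FDR, and the cause was not tested. Rfc1 was at -0.0018 under the 5 CPM filter. In voom Mcm3 was at 0.038, Rpa2 at 0.10 and Fen1 at 0.022. With sex as covariate Pola1 was at -0.62 and E2f1 at -0.25. Without tamoxifen replicates 1 to 3 Mcm6 was at -0.44, Mcm7 at -0.016, Pola1 at -0.24, Pold2 at -0.064, Rfc1 at -0.19, Rrm2 at -0.12 and E2f1 at -0.33; with these as 1 sample Mcm6 was at -0.077, Pola1 at -0.080 and Rfc1 at -0.086. Without replicates 4 and 6 Rpa2 was at 0.020. With 1 library left out the range was -2.39 to 0.31 for Cdc6, -0.92 to 0.34 for Mcm3, -0.073 to 0.62 for Mcm6, -0.20 to 0.49 for Pola1, -0.11 to 0.28 for Rfc1, -0.25 to 0.047 for Rpa2, -0.52 to 0.018 for Fen1 and -1.47 to 0.83 for Uhrf1. No paired analysis was possible because the labels give no replicate numbers. Depth limits the least abundant members: no tamoxifen library had more than 83 reads of Orc1, 90 of Gins3, 120 of Mcm10 or 132 of Pole.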
